A study of Mus with 4 samples.

Results

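Circular RNAs (circRNAs) hosted by the 3 kinase genes Hipk1, Hipk2 and Hipk3 were followed in 4 libraries of mouse ocular tissue. All circRNAs whose only deposited host identifier maps to one of these genes were taken, which gave 19 of the 44073 circRNAs listed in any library. Hipk1 hosted 4 of them, Hipk2 4 and Hipk3 11. The tissue came from C57BL/6J mice, either wild type or carrying a VLDLR deletion, which removes a lipoprotein receptor. All pups had breathed 75% oxygen from postnatal day 7 to day 12. Tissue was taken at day 12 (P12) or, after the return to air, at day 13 (P13). Age and time in air therefore cannot be told apart, and no group without oxygen treatment was analysed here. Each of the 4 groups held 1 library, written below as WT P12, WT P13, KO P12 and KO P13, where WT is wild type and KO the VLDLR deletion. The number of animals behind a library, the cells that carry the deletion and the parts of the eye taken are not stated in the labels.

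Homeodomain-interacting protein kinases are nuclear serine/threonine kinases related to the DYRK kinases, and they phosphorylate transcription regulators, p53 being the best-known target of HIPK2. A circRNA forms when the donor end of an exon is spliced back onto an acceptor upstream, so that a read across this back-spliced junction marks the ring. The circRNA made of the large second exon of HIPK3 is one of the most studied in mammals. It has been described in retinal vessels, and binding of microRNAs has been proposed for it.

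The 4 libraries held between 299723 and 759063 junction reads, fewer in the deletion than in wild type. The wild-type libraries shared 1 sequencing run and the deletion libraries another, with 0 runs in common, so that genotype and run cannot be told apart. Vldlr hosted no listed circRNA, so that the deletion could not be checked in these tables. Of the marker lists, 9 of 12 photoreceptor genes, 6 of 7 lens genes and 6 of 8 endothelial genes hosted a circRNA. Gnat1 and Cnga1 of the photoreceptor list hosted none, and neither did Cdh5 and Egfl7 of the endothelial list or Mip of the lens list.

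Nearly all Hipk junction reads came from 1 ring of Hipk3. This main circRNA (chromosome 2, 104470749 to 104471847, minus strand, exon class, spanning 1099 bases) held 3989 junction reads in WT P12, 4372 in WT P13, 1113 in KO P12 and 1409 in KO P13. It ranked 4, 5, 13 and 12 among all circRNAs of the library in the same order. Its share of all junction reads was 0.602% and 0.576% in the wild-type libraries against 0.371% and 0.412% in the deletion libraries. Both wild-type libraries thus lay above both deletion libraries. The wild-type libraries had been read on 2 lanes each, and the share per lane was 0.608% and 0.596% at P12 and 0.593% and 0.559% at P13. The lanes of a library are parts of the same library and repeat its share.

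Within Hipk3 this ring took 97.8% of the host's junction reads in WT P12 (95% exact binomial interval 97.3% to 98.2%), 98.0% in WT P13 (97.6% to 98.4%), 98.3% in KO P12 (97.4% to 99.0%) and 97.1% in KO P13 (96.1% to 97.9%). The 4 intervals overlap. They cover counting error only, as do all intervals given here, because no group held a repeat library. The reads also carry no molecular identifiers, so that reads copied from the same molecule could not be told apart. The other 10 Hipk3 circRNAs summed to 89, 87, 19 and 42 reads in the same order.

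Hipk1 and Hipk2 each hosted a ring of nearly the same span. That of Hipk2 (chromosome 6, 38818230 to 38819313, 1084 bases) held 22, 21, 12 and 4 reads in WT P12, WT P13, KO P12 and KO P13. That of Hipk1 (chromosome 3, 103777222 to 103778299, 1078 bases) was listed in KO P12 alone, with 3 reads. Each ring has 1 junction, so that these counts compare without a correction for length. The Hipk3 ring held 181 times the reads of the Hipk2 ring in WT P12 (95% exact interval 120 to 290), 208 times in WT P13 (136 to 337), 92.8 times in KO P12 (52.9 to 180) and 352 times in KO P13 (137 to 1295). Against the Hipk1 ring the ratio in KO P12 was 371 (127 to 1802). The order Hipk3 above Hipk2 held in every library, while Hipk2 and Hipk1 in KO P12 had overlapping intervals (46.4 CPM, 24.0 to 81.1, and 11.6 CPM, 2.39 to 33.9, where CPM are junction reads scaled by the effective library size).

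**Figure D1:**
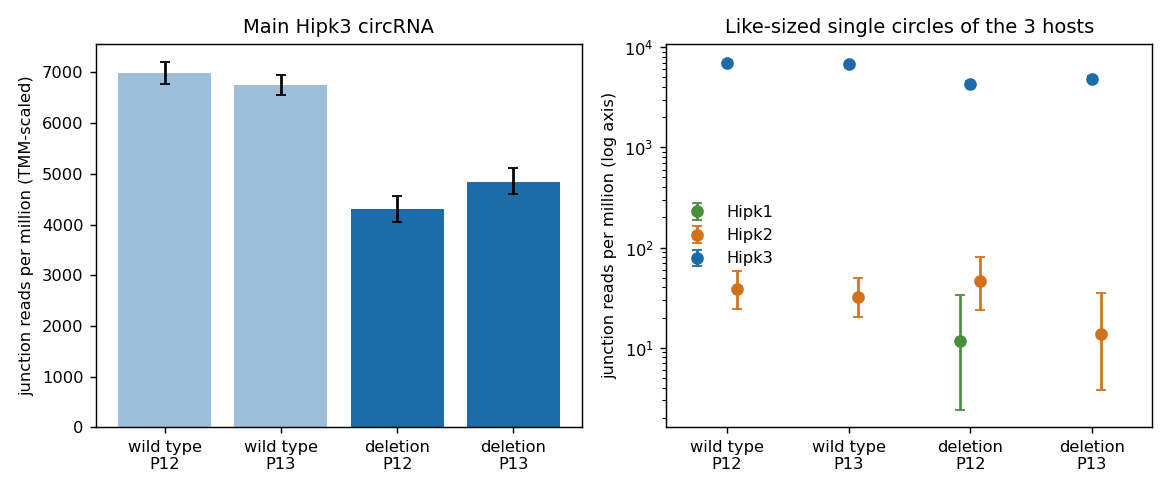
Left, scaled junction reads (CPM) of the main Hipk3 circRNA in each library, from 4306 to 6981; right, the like-sized rings of Hipk1, Hipk2 and Hipk3 on a log axis. Bars and points are single libraries, error bars are 95% exact Poisson intervals, and a missing point means that the ring was not listed there; Hipk3 lies far above Hipk2 in every library and above Hipk1 in the 1 library that lists its ring.

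The 10 minor Hipk3 circRNAs fell into 2 kinds by position. Of these, 8 lay wholly downstream of the main ring, many of them on shared splice edges. The upstream edge at position 104441364 served 4 of them, and the downstream edge at 104437851 served 4 circRNAs in all. The remaining 2 began at the upstream edge of the main ring (104471847) and ran to 104437851 (14 and 2 reads in WT P12 and P13, unlisted in the deletion) or to 104430727 (3 reads in WT P12 alone), the longest Hipk3 span of 41121 bases. All 19 Hipk circRNAs were of the exon class.

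The second Hipk3 circRNA by reads (104433168 to 104435057, spanning 1890 bases) held 34, 36, 8 and 33 reads in WT P12, WT P13, KO P12 and KO P13. Deletion P12 was the low library, and KO P13 came close to the wild-type counts although it is the smaller library. The third (104430727 to 104446635, spanning 15909 bases) held 24, 15, 7 and 4 reads, lower in both deletion libraries before scaling. Scaled, it had 42.0, 23.2, 27.1 and 13.8 CPM in the same order, with KO P12 above WT P13. The fourth (104436997 to 104441364) held 5 and 14 reads in wild type, was unlisted in KO P12 and held 5 in KO P13. The other 5 downstream circRNAs had between 3 and 5 reads wherever they were listed. Since the tables start at 2 reads, a ring that is not listed may still have 1 read, or more where the caller did not keep it.

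**Figure D2:**
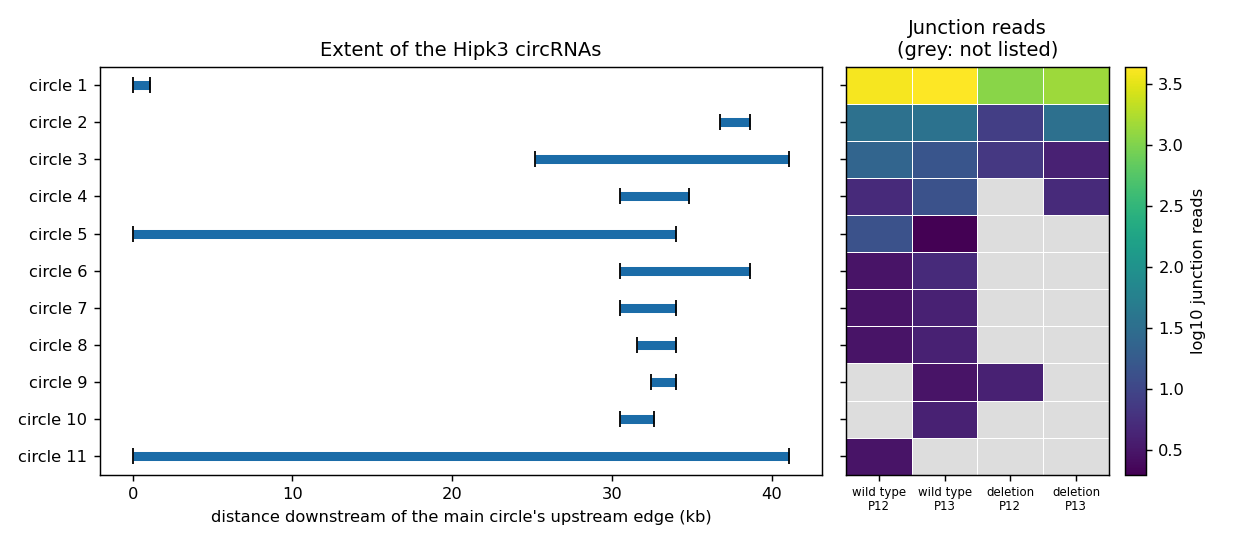
Left, extent of the 11 Hipk3 circRNAs as distance in kilobases downstream of the upstream edge of the main ring, ordered from most to fewest junction reads; right, log10 of the junction reads in each library, grey where not listed. The top ring holds 1113 to 4372 reads and every other one at most 36.

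More Hipk3 circRNAs were listed in wild type than in the deletion: 9 and 10 against 4 and 4. Over all circRNAs the numbers listed were 28563 and 31208 against 18022 and 20129, and depth differs in the same direction. With each library thinned to 299723 junction reads, the expected number listed, computed exactly from the counts, was 6.46, 6.69, 4 and 3.99. For all Hipk circRNAs the listed numbers were 13, 16, 7 and 6 and the expected ones 9.57, 9.99, 7 and 5.99. These counts have no test, because each group is 1 library. The thinning was not done over all circRNAs, so the expected Hipk numbers have no like value to stand beside.

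The second Hipk2 circRNA by reads (38743076 to 38747997) held 3, 14, 3 and 7 reads in WT P12, WT P13, KO P12 and KO P13. Its read count was highest in WT P13, the largest library. Scaled, it had 21.6 CPM in WT P13 (11.8 to 36.3) and 24.1 CPM in KO P13 (9.68 to 49.6). The last 2 were listed in WT P13 alone, with 5 and 2 reads. Summed over its rings, Hipk2 gave 25, 42, 15 and 11 reads. Hipk1 gave 13, 5 and 3 reads, with none listed in KO P13, and its best-covered ring (103769398 to 103778299, 8 and 3 reads in wild type) used the same upstream edge as the ring of 1078 bases.

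The tables also give non-junction reads at each pair of splice edges, which come from linear RNA or from within a ring, and a junction ratio. With junction reads counted 2 times, the ratio is their part in the sum of both kinds of read. The main Hipk3 ring had 216, 253, 97 and 89 non-junction reads and ratios of 0.974, 0.972, 0.958 and 0.969. Only 27 of 5316 circRNAs with at least 20 reads in WT P12 had a higher ratio, 34 of 5918 in WT P13, 57 of 2622 in KO P12 and 34 of 2951 in KO P13. The median ratio of these circRNAs was 0.489, 0.478, 0.612 and 0.592. The other Hipk3 rings were on the opposite side of the median. The second one had ratios of 0.222, 0.277, 0.151 and 0.402, and the third 0.358, 0.275, 0.215 and 0.186. The Hipk2 ring of 1084 bases stood at 0.657, 0.792, 0.585 and 0.471, above the median in wild type and below it in the deletion. The median rests on a different set of circRNAs in each library and was itself higher in the deletion. The KO P12 ratio of 0.585 lay above both wild-type medians. In the deletion this Hipk2 ring held only 12 and 4 reads, under the 20 asked of the circRNAs behind the median. The second Hipk3 ring in KO P12 (8 reads) and the third in WT P13, KO P12 and KO P13 (15, 7 and 4) were under it too.

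**Figure D3:**
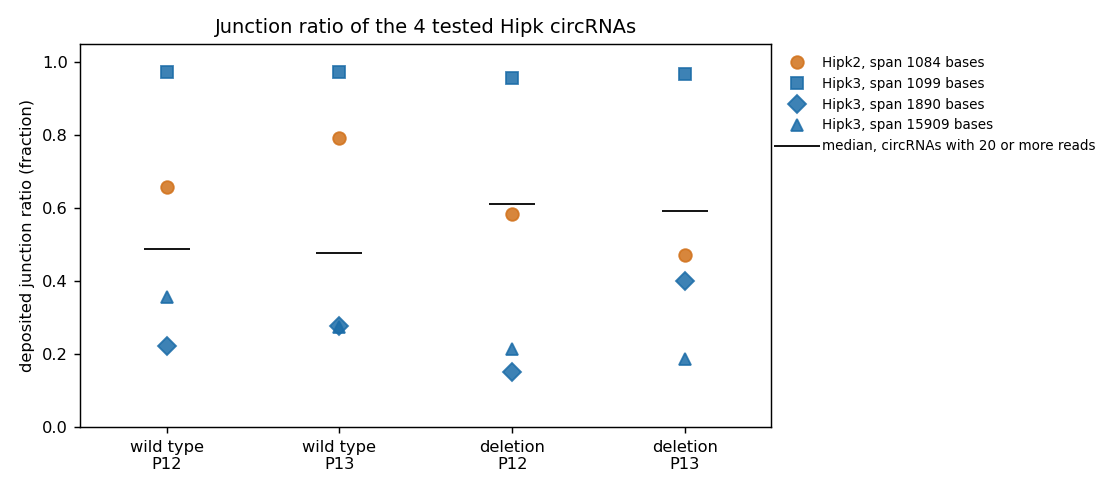
Deposited junction ratio, as a fraction from 0 to 1, of the 4 Hipk circRNAs that passed the read filter, in each library; the horizontal mark is the median of all circRNAs with at least 20 junction reads in that library. The main Hipk3 ring stays between 0.958 and 0.974 and the other 2 Hipk3 rings at or below 0.402.

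The deletion was compared with wild type over both days by edgeR's quasi-likelihood test with genotype and day as terms. Of the 19 Hipk circRNAs, 4 passed the filter of at least 10 reads in at least 2 libraries, 3 from Hipk3 and 1 from Hipk2. The main Hipk3 ring fell, from 6981 CPM (95% exact Poisson interval 6766 to 7201) in WT P12 and 6750 CPM (6551 to 6953) in WT P13 to 4306 CPM (4057 to 4567) in KO P12 and 4848 CPM (4598 to 5108) in KO P13. Its log2 fold change was -0.59 (SE 0.11, adjusted p 0.00158, edgeR's quasi-likelihood test, Benjamini-Hochberg adjustment over 8785 circRNAs). Over all circRNAs tested, 8.62% passed in either direction and 3.59% were lower. This fit leaves 1 residual degree of freedom per circRNA, and edgeR adds to it the spread estimated over all circRNAs tested, so that the p-values rest largely on that shared estimate and not on replicate animals. Scaling is relative to the other circRNAs of a library, and the median log2 fold change of all circRNAs was -0.08. In all, 442 circRNAs were called higher and 315 lower. On the authors' own SRPBM scale (junction reads divided by 1 constant per library) the split was 25 higher and 4773 lower. There the main ring had 436 and 480 units in wild type against 105 and 117 in the deletion, and its log2 fold change was -2.05 beside a median of -1.54 over all circRNAs (adjusted p 8.76e-04, edgeR's quasi-likelihood test). In bulk tissue, fewer cells of a type and less RNA per cell cannot be told apart.

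The other 3 tested rings did not pass. The second Hipk3 ring had a log2 fold change of 0.23 (SE 0.47), the third -0.68 (SE 0.66) and the Hipk2 ring -0.35 (SE 0.59), and their adjusted p were 0.832, 0.624 and 0.798 (edgeR's quasi-likelihood test). With standard errors of 0.47 to 0.66, changes of these rings in either direction remain possible. On summed reads Hipk3 fell as well, with 4078, 4459, 1132 and 1451 reads in WT P12, WT P13, KO P12 and KO P13 (log2 fold change -0.52, SE 0.10, adjusted p 4.75e-06 over 3899 hosts, edgeR's quasi-likelihood test), which repeats the main ring since that ring makes up the sum. Over all hosts 14.0% passed and 6.59% were lower. The host sum of Hipk2 had -0.12 (SE 0.51, adjusted p 0.919 by the same test), and Hipk1 stayed under the filter.

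**Figure D4:**
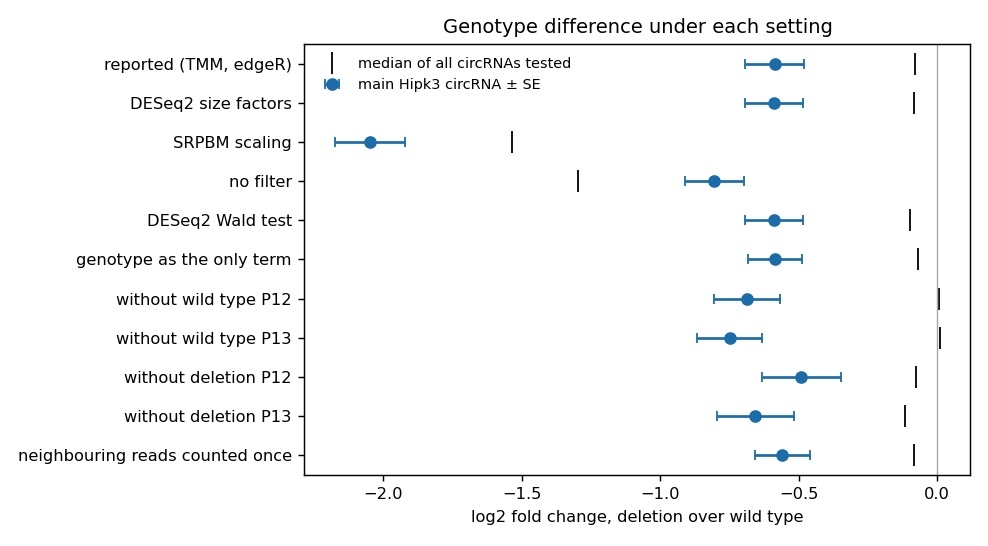
Log2 fold change of the main Hipk3 ring, deletion over wild type, with its standard error, under the reported setting and each alternative; the black mark is the median of all circRNAs tested under that setting. Every point lies below 0, from -2.05 to -0.49. With no filter the median of all circRNAs (-1.29) lies below the point of the ring (-0.80), unlike in the other settings.

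The ring was also low beside others of its abundance. Of the 10 circRNAs with most reads, 3 fell, the main Hipk3 ring among them, and 0 rose by the same test. Over all circRNAs 3.59% fell. With fewer reads a change of the same size passes less readily, so these shares do not compare directly. The main Hipk3 ring had the lowest value of the 10, and a ring of Bbs9 lay close to it (-0.52, SE 0.10). A ring of Mettl9 also fell (-0.36, SE 0.10). Among the 50 with most reads, 7 fell and 7 rose, their log2 fold changes ran from -0.83 to 1.53, and 2 were lower than that of Hipk3. Over all 8785 circRNAs tested its log2 fold change stood at percentile 26.9.

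Sums over marker lists of several cell types were higher in both deletion libraries than in both wild-type libraries. Scaled junction reads (CPM) summed over the photoreceptor list were 6368 and 7519 in wild type against 9564 and 9251 in the deletion. The lens sum was 881 and 1095 against 2739 and 2042, and the endothelial sum 92.9 and 122 against 185 and 157. The striated muscle sum was 2202 and 2280 against 2429 and 2900, and the bipolar cell sum 723 and 713 against 1102 and 773. The erythroid sum was 81.7 and 98.4 against 118 and 163, and that of the retinal pigment epithelium 33.7 and 40.8 against 77.6 and 42.4. The latter rested on 21, 29, 21 and 13 reads from 2 of 5 genes, and its P13 values were close. The groups overlapped for amacrine, horizontal and ganglion cells (106 and 88.6 against 104 and 84.8) and for Muller glia (32.0 and 11.2 against 29.6 and 29.4). By circRNA, 14 of 54 photoreceptor rings, 2 of 7 lens rings, 1 of 2 endothelial rings, 2 of 33 muscle rings and 1 of 1 erythroid ring rose, where 5.03% of all circRNAs rose (edgeR's quasi-likelihood test). By the same test 0 of 12 bipolar rings rose, 0 of 1 for the retinal pigment epithelium and 0 of 1 for amacrine, horizontal and ganglion cells. DESeq2 called 9 of the photoreceptor rings, 2 of the lens rings, 1 of the endothelial rings and 0 of the muscle and erythroid rings. On summed reads 3 of 9 photoreceptor, 1 of 2 endothelial and 2 of 5 bipolar hosts rose, while 1 of 4 lens hosts rose and 2 fell, where 14.0% of all hosts passed and 7.44% rose. Of the other lists, 0 of 4 muscle hosts and 0 of 1 erythroid host rose. The same held for 0 of 1 host of the retinal pigment epithelium and 0 of 1 of amacrine, horizontal and ganglion cells. DESeq2 called 2 of these photoreceptor hosts, 1 lens host and 0 endothelial or bipolar hosts. Their part in the Hipk3 result was not tested. The circRNAs of pericyte (1 of 4 genes) and microglia markers (1 of 4) summed to at most 14.1 CPM in any library.

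Junction reads were then set against non-junction reads of the same splice positions, which needs no scaling between libraries. Linear RNA had been removed before sequencing, so the quotient also depends on how fully this was done in each library. That was not tested, and it cannot be told apart from genotype and run. The main Hipk3 ring had 18.5 and 17.3 junction reads per non-junction read in WT P12 and P13 against 11.5 and 15.8 in KO P12 and P13. Both deletion values lay below both wild-type values. The log2 change of this quotient was -0.41 (SE 0.21) and did not pass (adjusted p 0.251, unadjusted p 0.0536, edgeR's quasi-likelihood test over 7606 circRNAs). The same holds for the second Hipk3 ring (0.22, SE 0.44), the third (-0.90, SE 0.62) and the Hipk2 ring (-1.07, SE 0.77). Their adjusted p were 0.820, 0.425 and 0.449 (edgeR's quasi-likelihood test). Of all circRNAs tested 7.02% passed, with a median of -0.11.

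Each day was next looked at alone. These ratios of 2 single libraries carry no test, and a ratio was called where it was at least 2 or at most 0.5, its 95% counting interval left out 1 and the libraries held at least 20 reads together. At P12 the main Hipk3 ring in the deletion had 0.617 times the wild-type level (95% exact interval 0.577 to 0.659), and at P13 0.718 times (0.676 to 0.763). Both intervals lie below 1 and neither ratio reaches 0.5. At P12 0 of 4 Hipk rings with enough reads were called, against 21.5% of all circRNAs. At P13 1 of 3 was called, against 19.9%. That was the second Hipk3 ring, at 2.04 times the wild-type level (1.23 to 3.37). At P12 the same ring stood at 0.520 (0.208 to 1.14). On the SRPBM scale 4 of 4 rings were called lower at P12, where 65.0% of all circRNAs were called, and 2 of 3 at P13, where 73.2% were, and the second Hipk3 ring was not called at P13. The Hipk2 ring had 1.21 (0.544 to 2.54) at P12 and 0.424 (0.106 to 1.26) at P13, and both intervals hold 1.

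**Figure D5:**
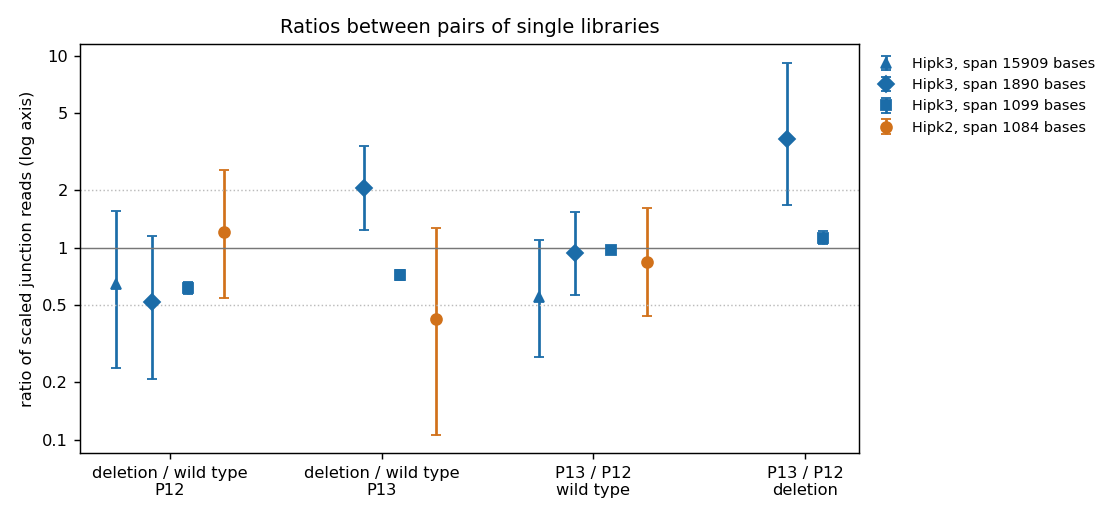
Ratios of scaled junction reads between pairs of single libraries on a log axis, for the 4 tested Hipk rings with at least 20 reads in the pair; error bars are 95% exact counting intervals and dotted lines mark 0.5 and 2. The main Hipk3 ring (squares) is below 1 in both genotype pairs, and the second Hipk3 ring (diamonds) is at 2.04 at P13 and at 3.67 between the days in the deletion.

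From P12 to P13 the main Hipk3 ring showed no change that passed. Its log2 fold change over both genotypes was 0.06 (SE 0.11, adjusted p 0.999, edgeR's quasi-likelihood test). Of all circRNAs 0.0228% passed for the day, and 0 of the 4 Hipk rings did (edgeR's quasi-likelihood test; 0 at an unadjusted p under 0.05, and 0 by DESeq2). The P13 to P12 ratio of the main ring was 0.967 in wild type (95% exact interval 0.926 to 1.01) and 1.13 in the deletion (1.04 to 1.22). Of 4 Hipk rings with enough reads in wild type 0 were called, against 9.10% of all circRNAs. In the deletion 1 of 2 was called, against 8.18%. The second Hipk3 ring there went from 8 to 33 reads, a ratio of 3.67 (1.66 to 9.19), while in wild type its ratio was 0.934 (0.568 to 1.54). Summed over rings, Hipk3 had a log2 fold change of 0.05 (SE 0.10) and Hipk2 of 0.08 (SE 0.50) for the day. Neither passed, and 0.103% of all hosts did.

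The kinases nearest to the HIPK family were followed as a list of 18 names for 17 genes, among them the DYRK, CLK and SRPK kinases. Of these, 11 hosted 59 circRNAs, of which 14 were tested for genotype. Of these 0 passed by edgeR's quasi-likelihood test and 0 by DESeq2, where 8.62% of all circRNAs passed by edgeR (1 higher and 2 lower at an unadjusted p under 0.05), and their median log2 fold change was 0.02 against -0.08 over all circRNAs. On summed reads 1 of 9 hosts passed (11.1%, under the 14.0% of all hosts). Srpk1, a kinase of splicing factors, fell, with 46 and 51 reads in wild type against 3 and 13 in the deletion (log2 fold change -1.47, SE 0.52, adjusted p 0.0363, edgeR's quasi-likelihood test), and 0 hosts passed by DESeq2, which gave Srpk1 no adjusted p. Hipk4 hosted none of the listed circRNAs.

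Of 61 genes of HIPK partners and substrates, 38 hosted circRNAs and 72 rings were tested. For genotype 2 rose and 4 fell, with a median of -0.29. These are 8.33% of the rings tested, near the 8.62% of all circRNAs, so that the count shows nothing about the list. A ring of Ep300, a histone acetyltransferase gene (chromosome 15, 81631614 to 81632512), had 127 and 193 reads in wild type against 142 and 169 in the deletion, whose libraries are smaller, and its log2 fold change was 1.13 (adjusted p 6.23e-04, edgeR's quasi-likelihood test). A ring of the corepressor gene Tle4 rose by 0.80. On the SRPBM scale both turned negative (-0.33 and -0.66). Rings of the nuclear receptor gene Rorb, which acts in photoreceptor development, (-0.97), and of the signal transducer genes Smad1 (-0.88) and Smad2 (-1.68) fell on both scales. By DESeq2 3 of these rings passed, those of Ep300, Rorb and Smad1, while Tle4 had an adjusted p of 0.0565 and Smad2 of 0.0908. A ring of the acetyltransferase gene Crebbp had 26 and 23 reads in wild type and was unlisted in the deletion. On summed reads Ep300 and Tle4 rose and Smad1, Smad2 and Rorb fell, 5 of 27 hosts (18.5%, where 14.0% of all hosts passed), with a median of -0.19 against -0.05 over all hosts. By DESeq2 0 of these hosts passed, and on the SRPBM scale the sums of Ep300 (-1.13) and Tle4 (-0.93) were negative. For the day 0 of the 72 rings and 0 of the 14 rings of the kinase list passed by edgeR's quasi-likelihood test or DESeq2 (2 of the 72 and 0 of the 14 at an unadjusted p under 0.05).

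The hosts whose summed reads followed Hipk3 most closely over the 4 libraries were sought among 280 hosts with at least 200 reads in every library. Likeness was the Euclidean distance between centred log2 CPM. The nearest were Pde5a, a cyclic GMP phosphodiesterase gene (distance 0.07), the G-protein regulator gene Rgs22 (0.10), the endosomal trafficking gene Vps50 (0.11), Zfp385b (0.16) and Mettl9 (0.20). Pde5a gave 1047, 1118, 292 and 352 reads in WT P12, WT P13, KO P12 and KO P13. With 4 libraries, this likeness is mostly the split between the genotypes. Hipk1 and Hipk2 had too few reads for such a ranking.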

How the data were processed

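Total RNA was freed of ribosomal and linear RNA before paired-end sequencing, per the labels' protocols. The submitters' processing notes list BWA and DESeq2, without versions or roles. The deposited tables have the column layout of CIRI, per the file headers; no label or header names a build, and positions are printed as the tables give them. The authors deposited counts of junction and non-junction reads per circRNA and library, a junction ratio as a fraction, and SRPBM, a signal equal to the junction reads divided by 1 constant per library. Recomputed values matched for every circRNA. The meaning of that constant is not stated in labels or headers.

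Names for the host identifiers came from RefSeq's genes of GRCm38.p6, used for nothing else; between 99.83% and 99.85% matched, and all 19 members lay inside their host's interval. No sequence is shown, because no genome or sequence table was used here. Where class or host differed between tables (65 circRNAs), exon went before intron and intron before intergenic.

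Junction counts were tested with edgeR 4.0.16 (TMM, quasi-likelihood, robust, Benjamini-Hochberg at 0.05) over all 4 libraries with genotype and day, for circRNAs and for reads summed per host, keeping those with 10 or more reads in 2 or more libraries. Standard errors were derived from the F statistic. Junction against non-junction reads was fitted with the library as a block, for circRNAs listed in all 4 libraries with at least 10 of each read in at least 2. CPM used effective library sizes. Fits were tested on simulated data. Alternatives were DESeq2 1.42.0, its size factors, SRPBM scaling, no filter, genotype as the only term, each library left out and, added after seeing the data, reads of 1 circRNA within 1000 coordinate units on a tile counted once. Described in full were the circRNAs with most reads per host, members that passed a test and called list genes. In the kinase list Ick is an older symbol of Cilk1, and 1 of the 61 partner names (Tp53inp1) matched no symbol. Members, lists and tests were chosen with earlier results of these data known.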

Additional observations from a re-analysis of the deposited data

Results flagged for a closer look

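Several Hipk values moved in opposite directions in the 2 groups of a contrast, each group being 1 library. None of these differences was tested. The second Hipk3 ring (104433168 to 104435057) had a deletion to wild type ratio of 0.520 at P12 and 2.04 at P13, and a P13 to P12 ratio of 0.934 in wild type against 3.67 in the deletion. The intervals of 0.520 and 0.934 hold 1. Its scaled level was 59.5, 55.6, 31.0 and 113.5 CPM in WT P12, WT P13, KO P12 and KO P13, so that the deletion libraries lay on opposite sides of the wild-type ones. The Hipk2 ring of 1084 bases had deletion to wild type ratios of 1.21 at P12 and 0.424 at P13. The Hipk2 sum had 1.38 (0.678 to 2.73) and 0.608 (0.282 to 1.20). Between the days the Hipk2 sum had 1.47 (0.878 to 2.52) in wild type and 0.647 (0.269 to 1.51) in the deletion. All these Hipk2 intervals hold 1. The main Hipk3 ring had P13 to P12 ratios of 0.967 (0.926 to 1.01) in wild type against 1.13 in the deletion. The Hipk3 sum had 0.959 (0.919 to 1.001) and 1.13. On the SRPBM scale these day ratios were all above 1, at 1.10 and 1.11 for the ring and 1.10 and 1.13 for the sum.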

How the results depend on the processing

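The lower level of the main Hipk3 ring in the deletion kept its direction and passed under all 10 alternatives, of which 4 leave out a library (log2 fold change -2.05 to -0.49, adjusted p at most 0.00862), as did the Hipk3 sum (-2.05 to -0.43, at most 0.0115; edgeR's quasi-likelihood test or DESeq2 with Benjamini-Hochberg adjustment). No paired analysis was possible because each group holds 1 library and the labels number no replicates. Fits without 1 of the libraries had 1 term and 1 genotype with a lone library, assumed to vary like the others, and day and genotype mix in them; they gave 467 to 1398 called circRNAs for genotype, 0 to 39 for the day, 231 to 682 and 2 to 10 called hosts, and 102 to 313 for junction against non-junction reads; DESeq2 called 289, 0, 100, 0 and 63 where edgeR called 757, 2, 547, 4 and 534. SRPBM scaling called 4798 circRNAs (25 higher, 4773 lower) and 2980 hosts (7 and 2973) for genotype and 0 of each for the day (188 higher and 51 lower circRNAs and 118 and 21 hosts at an unadjusted p under 0.05); it moved the ratios of the main ring to 0.240 at P12, 0.243 at P13 and 1.10 between the days in wild type, turned the second Hipk3 ring to -1.24 and its P13 ratio to 0.692, and let the third (-2.10), the Hipk2 ring (-1.78) and the Hipk2 sum (-1.64) pass as lower. No filter gave 17 circRNAs for the day, and counting neighbouring reads once gave 0. Over circRNAs listed in all 4 libraries the main ring took 98.6% and 98.8% of Hipk3 in WT P12 and P13.

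Signs turned for values that had not passed. With a library left out, genotype values ran from -0.87 to 0.99 for the second Hipk3 ring (-0.89 to 1.02 against non-junction reads), from -1.33 to 0.41 for the Hipk2 ring and from -0.47 to 0.17 for the Hipk2 sum, with the low end without KO P13 for the Hipk3 ring and without KO P12 for Hipk2; the Hipk2 sum had 0.14 without WT P13. For the day, the main Hipk3 ring ran from -0.32 to 0.49 and the Hipk3 sum from -0.25 to 0.41 when a library was left out, negative without WT P13 (-0.32, -0.21) or KO P12 (-0.25, -0.25), and the Hipk2 sum ran from -0.41 to 0.32, with -0.16 without WT P12, -0.0097 by DESeq2 and -0.0034 with neighbouring reads counted once. The cause was not tested. Depth limits Hipk1 and Hipk2, whose rings held at most 22 reads in a library.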
